A study of Gossypium hirsutum with 6 samples.

Results

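Gene expression in elongating cotton fibers was compared with expression in the ovules from which fibers arise. The fiber group consisted of fibers dissected from bolls at 14 days post anthesis (DPA), and the ovule group of ovules at 0 DPA, the day of flowering. All tissues were of Gossypium hirsutum acc. TM-1, an allotetraploid cotton, grown in the greenhouse with no treatment given, and each had 2 strand-specific mRNA-seq libraries that the labels call biological replications. Of the 77357 gene models in the deposited table, the 40428 with a mean of at least 0.5 FPKM over these 4 libraries were described (52.3%). FPKM count fragments by the length of a model in kilobases and by the total of fragments mapped in a library. The models described held at least 99.7% of the summed FPKM of each library. Near the minimum, 562 tested models had a mean under 0.55 FPKM, and 648 models left out had a mean of 0.45 FPKM or more.

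A cotton fiber is a single cell of the ovule epidermis that starts to grow out around flowering. It then elongates for weeks before most of its mass is laid down as cellulose in a secondary wall. An ovule at flowering is a young organ with several layers and cell types, most of which never form fibers. Allotetraploid cotton carries an A and a D subgenome, so that most genes are present as homoeologous copies. The comparison asked how the transcriptome changed between the ovule and the elongating fiber. Tissue and age differed together, so that these effects cannot be told apart. In whole tissue, fewer cells of a type and less RNA per cell cannot be told apart either.

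Identifiers in the table began with Cotton_A (19738 of the models tested) or Gorai (20690 of them), which are read here from the prefix alone as A-genome and D-genome models. A Gorai identifier also holds a chromosome number from 1 to 13. The table pairs 0 identifiers with gene names, and a RefSeq annotation table of the species held 0 of them. Function, cell type markers and the purity of the fibers could therefore not be checked, and few models are given by identifier.

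Depth was read from the values themselves, since FPKM of lowly expressed models stand in whole-number ratios. Relative to fiber replicate 1, depth was 0.964 in fiber replicate 2, and 0.867 and 0.740 in the ovule libraries. By this measure, which follows the total behind the FPKM scale, both fiber libraries were the deeper ones. Whole reads could be recovered for 27058 of the models tested (66.9%) and are lower bounds, since a divisor shared by the 6 libraries would go unseen. Summed over models, recovered reads were 3316107 and 3206698 in the fiber libraries, against 3498823 and 2945612 in the ovule libraries, and overlapped between the tissues. Replicates were close. Between replicates, 1.41% of the models in fiber and 1.52% in ovule differed by over 2-fold in FPKM + 1, against 55.2% between the means of the tissues.

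The fiber had fewer models with a higher value and more with a lower value than the ovule. With the adjusted p below 0.01 and over 2-fold change, 7217 models were higher in the fiber (17.9% of the models tested) and 14326 were lower (35.4% of the models tested), 53.3% in all (limma on log2(FPKM + 1), 6 libraries with leaf included for the spread). Among all models tested, called or not, both fiber libraries lay above both ovule libraries in 13664 (33.8%) and below them in 23038 (57.0%). The 21543 called models were all among these, so that separation of the libraries alone does not set them apart. The remaining 18885 models included 765 with a change of over 2-fold that did not pass the test. The middle 50% of the models had log2 changes between -1.47 and 0.62.

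The changes were often large. Over 4-fold, 2857 models stood higher in the fiber and 6230 lower. Over 16-fold, the numbers were 482 and 995, and over 64-fold they were 55 and 133. At each of these sizes more models were lower than higher. The surplus of lower models depended on how the libraries were scaled. The median log2 change of all models was -0.47 as deposited. It was -0.03 after quantile normalization, where 9976 models were higher and 10080 lower, so that 49.7% of the called models were higher, against 33.5% as deposited. After median-of-ratios scaling the median was -0.12, with 9463 models higher and 10761 lower (46.8% higher). Of the models called on the deposited values, 7212 were also higher and 10067 also lower after quantile normalization, and 0 changed direction.

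In summed FPKM, the called models weighed about the same on either side. The 7217 models higher in the fiber held 56.6% and 57.3% of the summed FPKM of the fiber libraries, against 8.33% and 8.13% in the ovule libraries. The 14326 models lower in the fiber held 8.33% and 8.38% in fiber, against 55.3% and 56.7% in ovule. Fewer models with higher levels thus stood against more models with lower levels. The median of the mean over the 4 libraries was 8.44 FPKM for models higher in the fiber and 5.33 FPKM for those lower in it. The models not called held 34.8% and 34.2% of the fiber libraries, against 36.1% and 34.9% of the ovule libraries. Shares of a library have a fixed sum, so that the balance of both sides follows from this and from the calls. It is given as a description. The 482 models more than 16-fold higher in the fiber alone held 21.8% and 22.7% of the fiber libraries, against 0.536% and 0.496% of the ovule libraries. The 995 models more than 16-fold lower held 0.458% and 0.424% of the fiber libraries and 19.4% and 19.7% of the ovule libraries.

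Output was concentrated in fewer models in the fiber. The 10 highest models of a library held 13.5% and 12.1% of the summed FPKM in the fiber libraries, against 4.91% and 4.75% in the ovule libraries. The single highest model held 3.09% and 3.03% in fiber, against 0.876% and 0.856% in ovule. It took 591 and 656 models to reach 50% of the summed FPKM in the fiber libraries, against 1237 and 1308 in the ovule libraries. To reach 90%, 9302 and 9562 models were needed in fiber, against 13412 and 13592 in ovule. Libraries of the tissues did not overlap in any of these measures. With 2 libraries per tissue, an exact permutation test (two-sided) cannot go below p = 0.333, its value for each of these measures. Models at or above 1000 FPKM numbered 89 and 85 in fiber, against 81 and 69 in ovule. At rank 100 the level was 923 and 862 FPKM in fiber, against 889 and 803 FPKM in ovule, and these values overlapped. The distance between the tissues was larger at the top, with maxima of 30253 and 28315 FPKM in fiber, against 8443 and 7935 FPKM in ovule.

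**Figure D1:**
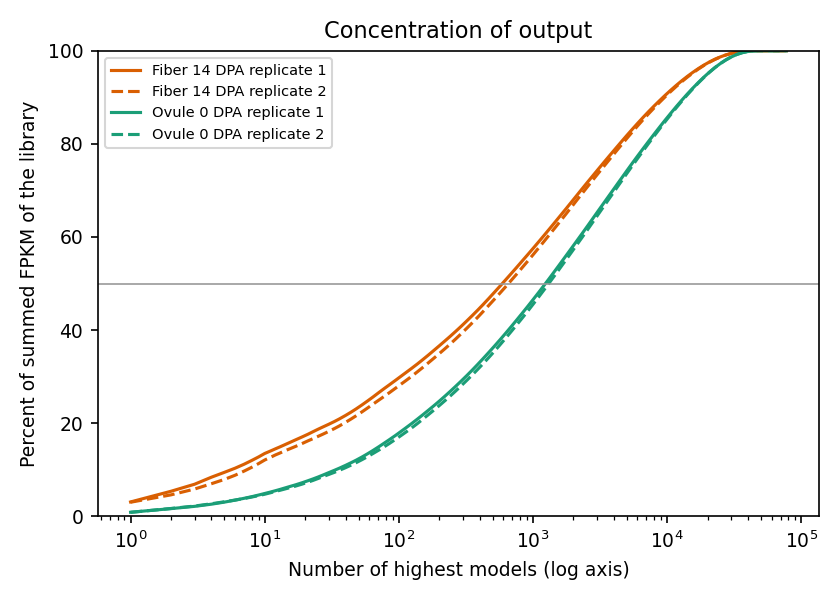
Percent of the summed FPKM of a library (y axis) held by its highest models (x axis, number of models, log scale), with 1 line per library. Both fiber lines lie above both ovule lines until all reach 100%, and they cross 50% at 591 and 656 models, against 1237 and 1308 models in ovule.

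The most abundant models of the fiber were not those of the ovule. Of the 10 highest models of fiber replicate 1, 10 were also among the 10 highest of fiber replicate 2, and 0 among the 10 highest of ovule replicate 1. Of the 100 highest, fiber replicate 1 shared 93 with fiber replicate 2 and 24 with ovule replicate 1, and fiber replicate 2 shared 22 with ovule replicate 2. The ovule libraries shared 90 of their 100 highest models with each other. The 100 highest models of fiber replicate 1 held 27.8% of the summed FPKM in fiber replicate 2, which was not used to choose them, against 5.79% and 4.92% in the ovule libraries. Their median rank was 50.5 in fiber replicate 2, against 556.5 and 562 in the ovule libraries. By their median, these models were thus well expressed in the ovule too, which need not hold for each of them. In leaf they held 3.0% and 3.50%. In the other direction, the 100 highest models of ovule replicate 1 held 9.80% and 7.39% in the fiber libraries, against 16.7% in ovule replicate 2.

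Cotton_A_39373 was the called model with the largest gain in mean FPKM and the highest model of both fiber libraries. It stood at 30253 and 28315 FPKM in fiber, against 357 and 303 FPKM in ovule. The libraries were far apart, with a mean of 29284 ± 1370 FPKM in fiber and 330.1 ± 38.2 FPKM in ovule (SD, n = 2), an 88.7-fold difference of means. The log2 change was 6.47 (SE 0.079, limma adjusted p = 3.10e-07). It was expressed in leaf as well, at 817 and 836 FPKM, and its rank in the ovule libraries was 348 and 402.

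The other models among the 10 highest of fiber replicate 1 varied more in how well replicates agreed. All 10 were called higher in the fiber, against 17.9% of all models tested, by 13.0-fold to 121-fold in mean FPKM. They were chosen as high in a library that enters the fit, so that their calls and folds are a description. The model of rank 2 stood at 22427 and 11685 FPKM in the fiber libraries, against 1565 and 1063 FPKM in the ovule libraries. The model of rank 4 stood at 14697 and 7777 FPKM in fiber, against 890 and 646 FPKM in ovule. In both models the fiber replicates were nearly 2-fold apart, unlike at rank 3, which had 14815 and 14765 FPKM in fiber, against 743 and 704 FPKM in ovule. The rank 4 model was worth 36.7 FPKM per read in fiber replicate 1, so that its values came from 400 and 204 recovered reads in fiber, against 21 and 13 in ovule. The largest ratio was at rank 5, with 10269 and 10636 FPKM in fiber, against 89.6 and 83.6 FPKM in ovule. All 10 were lower in leaf than in fiber. The model of rank 9, with 7447 and 7464 FPKM in fiber, against 293 and 293 FPKM in ovule, had 1488 and 1484 FPKM in leaf.

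Cotton_A_33740 was the called model with the largest loss in mean FPKM. It stood at 471 and 429 FPKM in fiber, against 8443 and 7935 FPKM in ovule. It was the highest model of both ovule libraries and still ranked 228 and 249 in the fiber libraries. The mean was 449.9 ± 29.5 FPKM in fiber and 8189 ± 359 FPKM in ovule (SD, n = 2), and the log2 change was -4.18 (SE 0.054, limma adjusted p = 3.10e-07). Leaf had 3732 and 3817 FPKM.

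Of the 10 highest models of ovule replicate 1, 7 were called lower in the fiber, against 35.4% of all models tested, and this too is a description, since that library enters the fit. The strongest contrast was at rank 4, with 70.7 and 60.2 FPKM in fiber, against 4467 and 4865 FPKM in ovule, a 71.3-fold difference of means. The model of rank 10 was at 4199 and 3842 FPKM in fiber, against 3211 and 2997 FPKM in ovule, and was not called (log2 change 0.37, SE 0.12, limma adjusted p = 0.0337). Ranks 6 and 9 rested on few reads. Rank 6, at 1608 and 2002 FPKM in fiber, against 4079 and 3045 FPKM in ovule, came from 5 and 6 recovered reads in fiber, against 11 and 7 in ovule. Rank 9 came from 4 and 3 recovered reads in fiber, against 8 and 2 in ovule. Each was worth over 300 FPKM per read in fiber replicate 1 and neither was called.

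**Figure D2:**
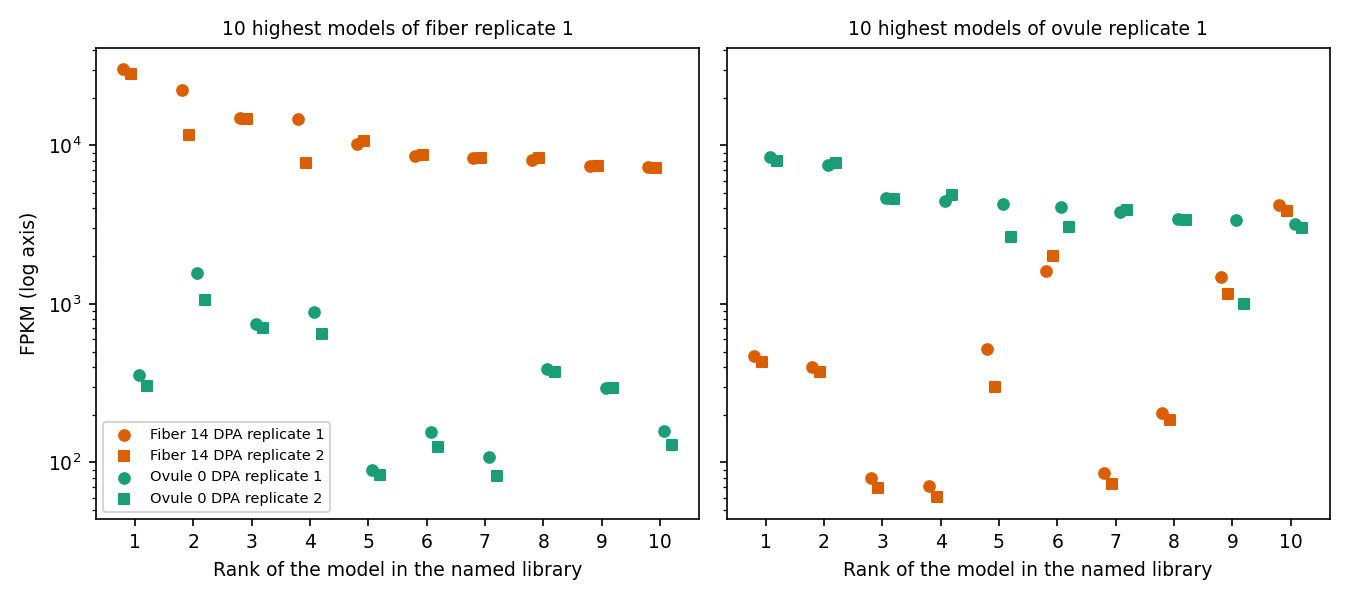
FPKM (log axis) of the 10 highest models of fiber replicate 1 (left) and of ovule replicate 1 (right) by rank, with 1 point per library. In the left panel all fiber points lie above all ovule points of the same model, and in the right panel ranks 6, 9 and 10 lie close to or among the fiber points.

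High FPKM from few reads was not limited to these models. FPKM per read was known only for models with recovered reads (66.9% of those tested), so that other such models may have been missed. Models worth over 1 FPKM per read in fiber replicate 1 numbered 952 of those tested, of which 863 were A-genome models (4.37% of them) and 89 were D-genome models (0.430%). Together they held 10.1% and 7.51% of the summed FPKM of the fiber libraries, against 8.89% and 7.26% of the ovule libraries, and their tissues overlapped. Among the 100 highest models of a library they numbered 22 and 16 in fiber, against 20 and 16 in ovule. Without them, the 100 highest models held 28.4% and 27.5% in fiber, against 17.7% and 17.4% in ovule. Both fiber libraries thus lay above both ovule libraries without them as well. Models without recovered reads stayed in this comparison, among them the model of rank 2 in fiber replicate 1. Replicates of the models worth over 1 FPKM per read differed more. For the A-genome models worth over 1 FPKM per read, the median replicate SD was 0.46 on the log2(FPKM + 1) scale. It was 0.13 for other A-genome models.

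Among models with a mean of 1000 FPKM or more, more were higher in the fiber than lower. Models were divided by their mean FPKM over the 4 libraries, which are also the libraries compared. A model could thus enter the highest class through the tissue where it was high, and the maxima were higher in the fiber. The split in that class is therefore a description. Of the 67 models with a mean of 1000 FPKM or more, 31 were higher (46.3%) and 17 lower (25.4%) in the fiber, against 17.9% and 35.4% of all models tested. By recovered reads, 14 of the 67 were worth over 1 FPKM per read in fiber replicate 1. The next class had the other order as deposited. Of its 1526 models, between 100 and 1000 FPKM, 29.4% were higher and 33.4% lower. Of the 15521 models between 1 and 5 FPKM, 13.8% were higher and 37.5% lower. Of the 4445 models between 0.5 and 1 FPKM, 8.71% were higher and 24.0% lower, on a scale where the pseudocount shrinks their changes. In the highest class, 60.9% to 66.7% of the called models were higher in the fiber under all 4 scalings tried. Below that class the split depended on the scaling. For models between 0.5 and 1 FPKM, higher models were 26.6% of the called models as deposited and 70.4% after quantile normalization.

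**Figure D3:**
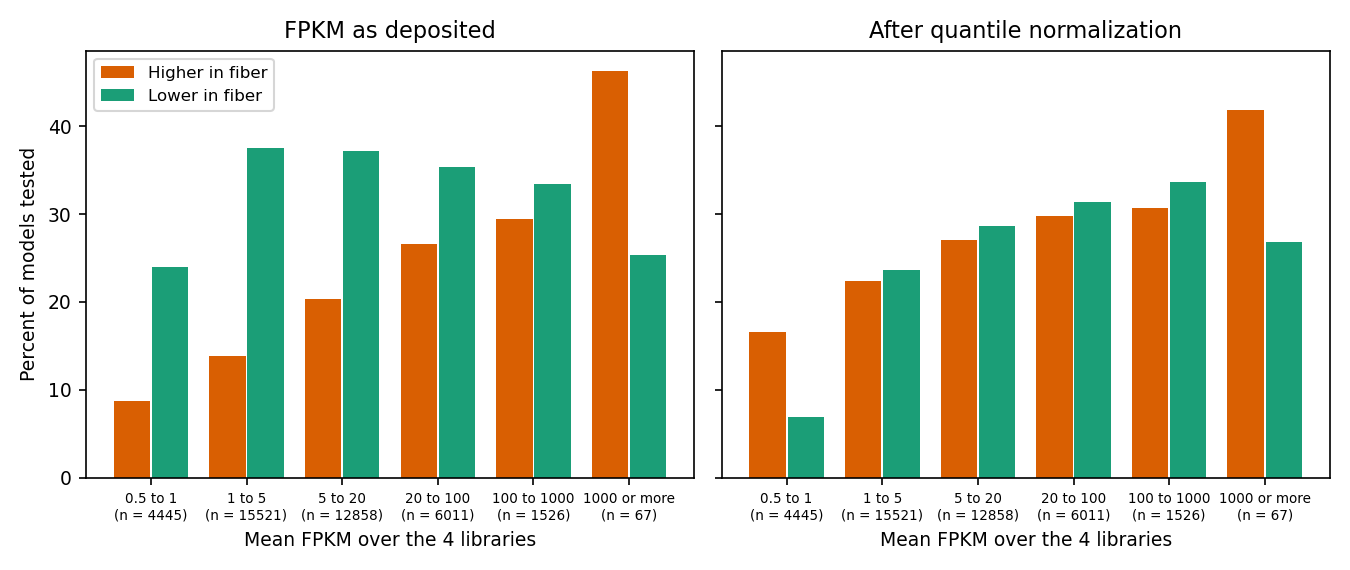
Percent of the models tested that were higher (orange) or lower (green) in fiber than in ovule (y axis), by mean FPKM over the 4 libraries (x axis, with the number of models), for FPKM as deposited (left) and after quantile normalization (right). Higher models prevail in the class of 1000 FPKM or more in both panels (46.3% higher and 25.4% lower as deposited). In the class of 0.5 to 1 FPKM, lower models prevail as deposited and higher models after quantile normalization. In the classes between, lower models prevail in both panels, by little after quantile normalization.

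On the deposited scale, fewer models reached 1 FPKM in the fiber. This count depends on the scaling. Median-of-ratios factors, by which values were divided, were 0.925 and 0.918 for the fiber libraries, against 1.30 and 1.28 for the ovule libraries. The count was not repeated on rescaled values. In the whole table, 28671 models were at or above 1 FPKM in both fiber libraries, against 33973 in both ovule libraries. Of the 28671 models in fiber, 87.5% were also at or above 1 FPKM in both ovule libraries. Of the 33973 models in ovule, 73.8% were also at or above 1 FPKM in both fiber libraries, 17.6% were under 1 FPKM in both but not at 0 in both, and 3.94% were listed at 0 in both. Most of the ovule models that did not reach 1 FPKM in both fiber libraries were therefore low in the fiber and not at 0.

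Switches were defined as models with at least 1 FPKM in both libraries of 1 tissue and a listed value of 0 in both libraries of the other. On in fiber and off in ovule were 550 models (1.36% of the models tested), and on in ovule and off in fiber were 1338 (3.31%). Off in fiber was thus the more frequent state at these limits on the deposited scale. With only 1 library per tissue the definition gave 889 to 1114 switches on in fiber and 2223 to 2600 on in ovule, so that the counts depend on both replicates. The order held in all 4 such combinations. A value of 0 can be a missing estimate. In fiber 38 models and in ovule 53 were listed at 0 in 1 replicate and at 10 FPKM or more in the other.

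Most switches were lowly expressed in the tissue where they were on. The median level was 2.89 FPKM for switches on in fiber and 2.97 FPKM for those on in ovule, and 92 and 193 of them reached a mean of 10 FPKM. They made up 0.788% and 0.729% of the summed FPKM of the fiber libraries in the first set, and 1.18% and 1.21% of the ovule libraries in the second. Of the models with a mean between 1 and 2 FPKM and on in fiber, 4.08% were listed at 0 in ovule. Of those on in ovule, 9.52% were listed at 0 in fiber. Between 10 and 50 FPKM the shares were 0.949% for models on in fiber and 1.68% for those on in ovule. At 50 FPKM or more they were 0.578% (17 models) and 0.688% (23 models). Complete switches thus became rarer with level in both directions.

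**Figure D4:**
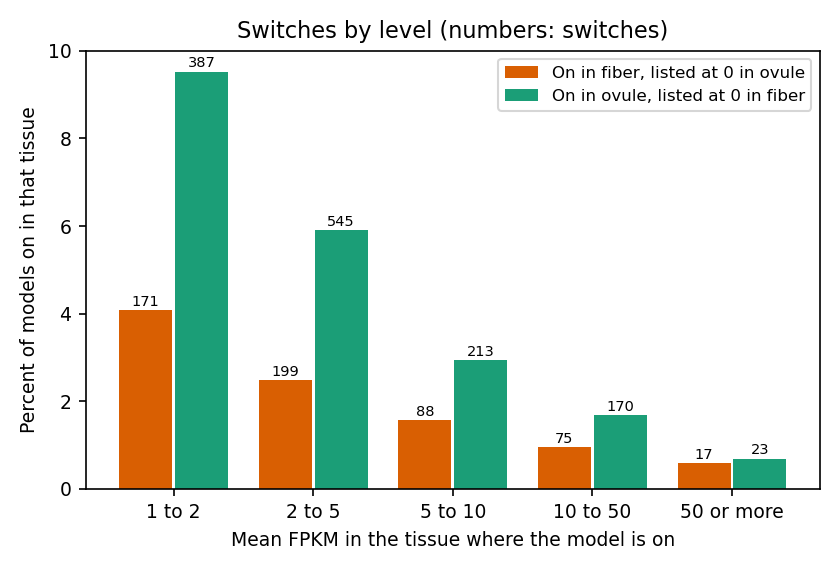
Percent of the models on in a tissue (at least 1 FPKM in both of its libraries) that were listed at 0 in both libraries of the other tissue (y axis), by mean FPKM in the tissue where they were on (x axis), with the number of switches above each bar. The share falls with level in both directions and is lower for models on in fiber in every class, with 4.08% for models on in fiber against 9.52% for models on in ovule at 1 to 2 FPKM, and 0.578% against 0.688% at 50 FPKM or more.

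Recovered reads were available for 333 of the 550 switches on in fiber and 972 of the 1338 on in ovule. Their median was 16 reads over both fiber libraries and 22 reads over both ovule libraries. Fewer than 10 reads lay behind 141 of the 333 (42.3%) and 296 of the 972 (30.5%). With at least 10 recovered reads, 192 switches were on in fiber and 676 on in ovule. A-genome models were the larger part of both sets, with 328 of 550 and 811 of 1338. They made up 1.66% of the A-genome and 1.07% of the D-genome models tested for switches on in fiber, and 4.11% and 2.55% for those on in ovule. Models worth over 1 FPKM per read, most of which were A-genome models, numbered 114 in the first set and 209 in the second. Their part in the difference between the prefixes was not tested.

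The best covered switch of each direction showed how low the other tissue was. Cotton_A_33309, on in fiber, stood at 38.7 and 41.3 FPKM in the fiber libraries, from 541 and 556 recovered reads, and was listed at 0 in both ovule libraries. It had 0.102 and 0.197 FPKM in leaf, from 1 and 2 recovered reads. At the depth of the ovule libraries, 0 reads allow up to 3 reads, which are worth 0.247 and 0.290 FPKM of this model. The log2 change was 5.36 on the scale of log2(FPKM + 1) (SE 0.11, limma adjusted p = 5.38e-07). Gorai.007G075500, a model of chromosome 7, was on in ovule. It was listed at 0 in both fiber libraries and stood at 4.31 and 4.18 FPKM in ovule, from 572 and 473 recovered reads. Here 0 reads in the fiber libraries allow up to 0.0196 and 0.0203 FPKM. The log2 change was -2.39 on the same scale (SE 0.13, limma adjusted p = 1.03e-05). Its 0.00653 FPKM per read in fiber replicate 1 lay close to the 0.005 below which recovered reads were not used. Leaf had 0.297 and 0.0718 FPKM.

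Leaf libraries, which took no part in the definition, differed between the sets of switches. Of the 550 switches on in fiber, 295 (53.6%) were also listed at 0 in both leaf libraries and 67 (12.2%) were at or above 1 FPKM in both. Of the 1338 switches on in ovule, 453 (33.9%) were listed at 0 in leaf and 432 (32.3%) were at or above 1 FPKM. The leaf libraries were the shallowest of the 6, at 0.704 and 0.728 of the depth of fiber replicate 1. Switches on in fiber also had fewer recovered reads, with a median of 16 against 22. The part of read number in the difference was not tested. The same leaf shares over all models tested are not given here, so that the difference cannot be called particular to switches.

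A-genome and D-genome models were changed in nearly the same proportions. In the fiber, 18.6% of the 19738 A-genome models had a higher and 35.1% a lower value. Of the 20690 D-genome models, 17.1% were higher and 35.8% lower, against 17.9% and 35.4% of all models. The median log2 change was -0.47 for A-genome and -0.48 for D-genome models. The share of summed FPKM in A-genome models was 60.6% and 59.0% in the fiber libraries, against 60.3% and 59.7% in the ovule libraries, and overlapped between the tissues.

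Among the most abundant models the prefixes did differ between the tissues. All 10 highest models of each ovule library were A-genome models, while in each fiber library 7 were A-genome and the other 3 D-genome models. Among the 100 highest, A-genome models numbered 62 and 62 in fiber, against 75 and 74 in ovule, and they held 72.2% and 69.9% of the FPKM of these 100 in fiber, against 81.5% and 80.9% in ovule. Among the 1000 highest, A-genome models numbered 619 and 612 in fiber, against 650 and 645 in ovule. Libraries of the tissues did not overlap in these numbers (exact two-sided permutation test, p = 0.333, the smallest possible). Models worth over 1 FPKM per read, most of them A-genome models, were among the 100 highest, with 22 and 16 in fiber, against 20 and 16 in ovule. The prefixes were not counted again without them.

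Calls were spread evenly over the 13 chromosomes of the D-genome models. The share of higher models ranged from 15.9% on chromosome 6 to 18.6% on chromosome 2, against 17.1% of all D-genome models. The share of lower models ranged from 34.3% on chromosome 4 to 38.1% on chromosome 11, against 35.8%. Chromosome 11 had the lowest median log2 change, at -0.62, which was 0.15 below the median of all models. It also had the lowest median after quantile normalization and after median-of-ratios scaling, at 0.12 and 0.11 below the median of all models. The highest median, on chromosome 5, was 0.08 above that of all models as deposited. Switches ranged from 0.540% of the models tested on chromosome 13 to 1.69% on chromosome 11 for those on in fiber, and from 1.89% on chromosome 12 to 3.11% on chromosome 11 for those on in ovule. With 8 to 27 switches on in fiber and 19 to 73 on in ovule per chromosome, these shares rest on few models.

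Summed output per chromosome differed between the tissues, and for several chromosomes the order depended on the most abundant models. Chromosome 11 held 9.65% and 9.71% of the summed D-genome FPKM in fiber, against 7.53% and 7.61% in ovule. Of this, 2 models among the 10 highest of fiber replicate 1 held 4.17% and 4.21% in fiber, against 0.117% and 0.112% in ovule. The numbers in their identifiers were 4 steps apart. Without the 100 highest D-genome models of each library, chromosome 11 held 6.26% and 6.24% in fiber, against 7.59% and 7.60% in ovule, the reverse order. Chromosome 9 also turned, with 14.6% and 14.8% in fiber, against 12.9% and 13.1% in ovule, but 12.0% and 12.0% in fiber, against 12.7% and 12.6% in ovule, without the 100 highest. Its highest model stood at 8047 and 8300 FPKM in fiber. Chromosome 12 kept its order, with 5.91% and 5.91% in fiber, against 5.17% and 5.21% in ovule, and 5.81% and 5.79% in fiber, against 4.69% and 4.81% in ovule, without the 100 highest. Chromosome 13 was the lower one in fiber with all models, at 6.24% and 6.25% against 7.87% and 7.91% in ovule. Without the 100 highest it was the higher one in fiber, at 8.36% and 8.35% against 7.89% and 7.88% in ovule.

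**Figure D5:**
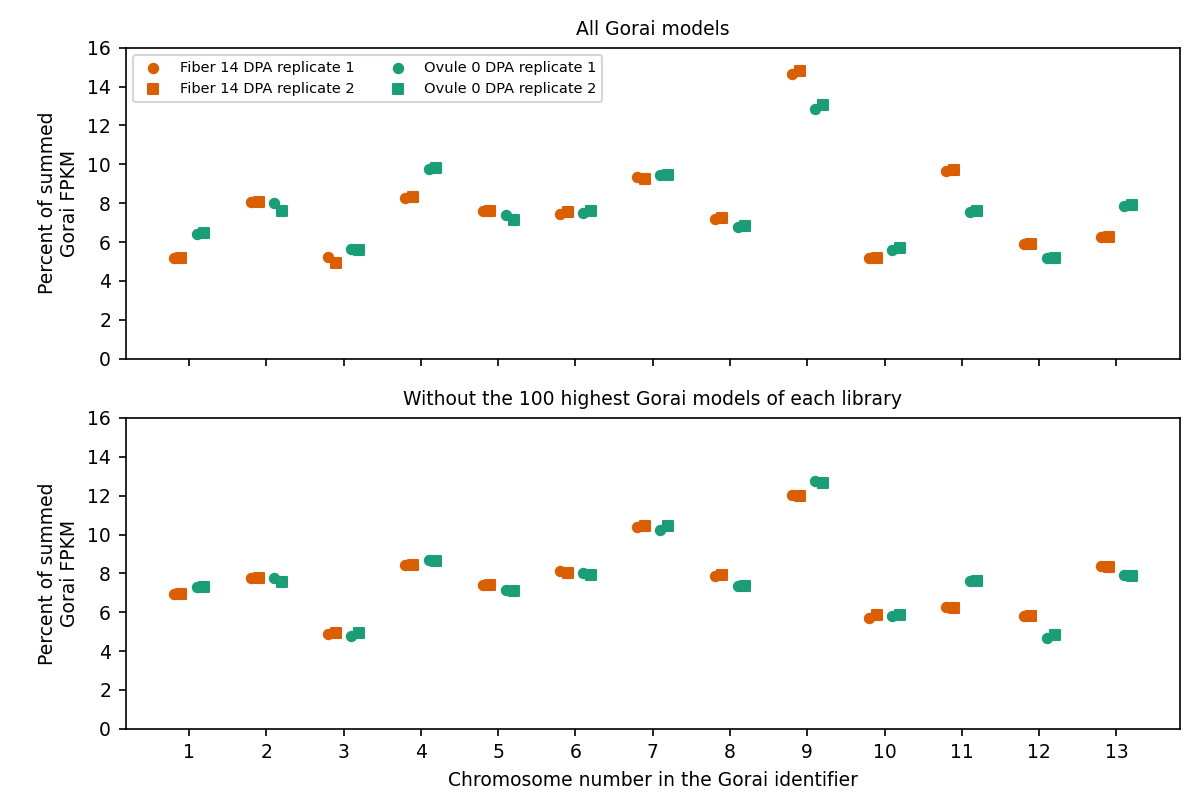
Percent of the summed FPKM of the D-genome (Gorai) models of a library (y axis) that fell on each chromosome (x axis, number in the identifier), for all Gorai models (top) and without the 100 highest Gorai models of each library (bottom), with 1 point per library. Fiber lies above ovule on chromosomes 9 and 11 in the top panel and below it in the bottom panel, and lies above it on chromosome 12 in both.

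Neighbours in the identifier order shared direction little more often than distant models. The numbers in Gorai identifiers were taken as an order along each chromosome. Where a D-genome model was higher in the fiber, the next one in number, if tested, was higher in 19.1% of the cases, against 17.7% for the model 50 numbers on. For lower models the shares were 38.3% and 35.2%. The difference was larger for strong changes. After a D-genome model over 8-fold higher, the next was also over 8-fold higher in 6.14% of the cases (21 pairs), against 2.45% (7 pairs) for the model 50 numbers on. After one over 8-fold lower, the shares were 9.68% (69 pairs) and 6.60% (42 pairs). Cotton_A numbers gave 8.73% (31 pairs) for the next number and 2.86% (9 pairs) for 50 numbers on among increases over 8-fold. Near-identical neighbours can share or lose reads when only uniquely mapped reads are kept, and such pairs were not separated here. No test of these shares was run. The longest run of D-genome models called higher in the fiber had 5 members, on chromosome 2, with log2 changes from 1.10 to 4.48, and values of 35.1 to 738 FPKM in fiber, against 0.547 to 292 FPKM in ovule. The longest run called lower had 7 members, on chromosome 8, with values of 0 to 24.9 FPKM in fiber, against 1.26 to 62.2 FPKM in ovule. Over 10 equal stretches of the identifier order of the chromosomes, 33.8% to 37.3% of the models were lower and at most 18.6% higher.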

How the data were processed

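Strand-specific mRNA-seq libraries were made from fibers at 14 DPA, ovules at 0 DPA and young leaves, with 2 libraries per tissue. Groups and replicate numbers were taken from the sample titles. The labels call replicates biological but do not say whether they came from separate plants, so that adjusted p-values measure the spread between these libraries. The authors deposited FPKM values, with 1 column per library and no pooling. Per the study's methods and the submitters' processing notes, which name CASAVA 1.8, TopHat and Cufflinks, uniquely mapped reads were kept and abundance was estimated over annotated genes. For TopHat and Cufflinks, the version is not given in the sources used here. The genome named in the methods is that of TM-1, whereas the identifiers carry the prefixes Cotton_A and Gorai, and this conflict was not resolved. FPKM values are shares of a library, so that a few abundant transcripts lower all others.

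Expression was compared on log2(FPKM + 1), which understates changes of low values, with limma 3.58.1 in R 4.3.3 (1 model over 6 libraries, variance trend, robust fitting, Benjamini-Hochberg adjustment over the 40428 models with a mean of at least 0.5 FPKM over the fiber and ovule libraries). The procedure was tested on simulated data with normal noise and no difference in scale between libraries. That test therefore does not bear on the scaling or on few-read models. Relative depth was taken from models under 1 FPKM. The smallest whole reads that explained all values of a model were sought with a tolerance of 0.05 of a read and a chance of wrong matches of at most 0.001, and 251 models under 0.005 FPKM per read were set aside. Limits from 0 reads cover counting error only.

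By rule, models given by identifier were, per direction, the called model with the largest difference in mean FPKM and the called switch with the most recovered reads. The members, lists and alternatives were chosen with earlier results of these data known. Alternatives covered the scaling, pseudocount, filter, samples fitted, replicate block, the study's rule, few-read models and each library left out. Leaf served for the spread of the fit and as a level beside switches.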

Additional observations from a re-analysis of the deposited data

How the results depend on the processing

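Of 179 values recomputed under alternatives, 28 moved beyond the replicate SD, the binomial interval or 1.5 times of a count. The 68 log2 changes of the 4 models given by identifier were judged on direction and call alone, which all kept, but their sizes moved. Over the alternatives they ran between 6.35 and 6.96 for Cotton_A_39373, 5.31 and 8.65 for Cotton_A_33309, -5.91 and -3.70 for Cotton_A_33740, and -5.44 and -2.08 for Gorai.007G075500. Scaling moved the split of calls most. Models higher in the fiber made up 46.8% of the called models with median-of-ratios scaling, 49.7% with quantile normalization, 38.5% after rescaling without the 100 highest models and 34.4% by the study's rule of over 2-fold and an unadjusted P under 0.01. That rule called 5441 models higher and 10383 lower. With a pseudocount of 0.1 the numbers were 7732 and 15593.

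Replicate numbers were shared between tissues, and the correlation of replicate differences between fiber and ovule was 0.05. Each tissue gives a single replicate difference, so that this value cannot show whether libraries of equal number had a shared origin. With the replicate block, 7191 models were higher and 14262 lower. Without any one of the libraries there were 6692 to 7221 models higher, 13392 to 14300 lower and 33.2% to 34.1% of the called models higher. The lone library of a tissue was then taken to vary as the other tissues did.

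Switches on in fiber numbered 157 at a minimum of 5 FPKM and 192 with at least 10 recovered reads. Those on in ovule numbered 353 and 676. With 1 library per tissue (leave-one-out) there were 889 to 1114 and 2223 to 2600. Off below 0.1 FPKM in place of 0 kept both counts within 1.5 times.

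The 10 highest models held 12.8% in fiber and 4.83% in ovule, the 1000 highest 56.9% and 46.1%, and the effective number of models, the exponential of the Shannon entropy of FPKM shares, was 3914 and 7760. Leaving out a replicate gave 28.1% to 29.8% in fiber and 17.0% to 17.9% in ovule for the 100 highest. The A-genome share was 55.2% in fiber and 55.5% in ovule without the 100 highest models, 49.1% and 48.5% when models of at least 1 FPKM were counted, and 56.6% and 57.0% without models over 1 FPKM per read. In the count of models of at least 1 FPKM, both fiber libraries lay above both ovule libraries. For the share of summed FPKM over all models, the order with 1 library per tissue depended on the library. Leaving out a replicate gave 59.0% to 60.6% in fiber and 59.7% to 60.3% in ovule.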
